A study of Mus musculus with 6 samples.

Results

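The genes of homologous recombination and Fanconi repair described here were the rows of the table whose symbol is on a list of 25 recombination and damage signaling genes, or starts with Fanc, which added 10 Fanconi genes. All 35 were among the 14870 genes of the table, and all 35 passed the minimum of 10 normalized counts on average in at least 1 group. Homologous recombination copies a broken DNA end from an intact sister chromatid, and the Fanconi pathway unhooks crosslinks between the strands and hands the resulting breaks to recombination. In outline, nucleases trim the broken end, the BRCA1 and BRCA2 complexes prepare it for pairing, and further proteins help it to invade its template. The Fanconi core complex attaches ubiquitin to the FANCD2-FANCI pair at a stalled fork, and the kinases ATM and ATR start the signal. Most of this repair takes place in the S and G2 phases of the cell cycle, in which a sister chromatid is at hand.

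The cells were primary lung-resident fibroblasts of TGFα mice, which carry a TGFα transgene under a Dox-responsive promoter together with the rtTA activator driven by the club cell promoter CCSP, so that the lung epithelium, and not the fibroblast, makes the growth factor. The mice were of both sexes and adult, and had received Dox for 10 days, which the control siRNA and the Aurkb siRNA groups share. Of the 6 libraries, 3 came from cells transfected with a negative control siRNA and the other 3 from cells transfected with an siRNA against Aurkb, the kinase Aurora B, each for 72 h. The knockdown used 1 commercial siRNA product, the cells were at a low passage, and whether each library stands for its own mouse or its own culture is not stated, so that the p-values reflect the spread among these libraries alone, which may be technical.

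The authors deposited RPKM values, which scale reads by the length of the gene and the counted reads of the library, and the whole reads behind them were recovered. A normalized count is the number of reads of a gene divided by the authors' size factor of the library, which ran from 0.7608 to 1.1155. Counted reads ran from 29350227 to 30441954 in the control siRNA libraries and from 20820596 to 27572833 in the Aurkb siRNA libraries. Each gene was compared as log2(normalized count + 1) with limma over the 13906 genes tested. On this scale the change of a low gene is understated. A gene was called when its Benjamini-Hochberg adjusted p reached 0.05 and its change reached 1.5-fold. Aurkb itself stood at 99.5, 108 and 134 normalized counts with control siRNA and at 37.4, 52.8 and 28.9 with Aurkb siRNA (log2 fold change -1.52 ± 0.23 SE by limma, adjusted p = 0.000927). The fibroblast markers were the most abundant of 7 marker lists, with a summed level of 1458933 to 1656773 normalized counts in the control libraries and 1192298 to 1401444 in the Aurkb siRNA libraries. Of 7 endothelial markers 6 were lower (summed level 5122 to 6877 against 2588 to 3204), and of 7 neutrophil granule genes 6 were higher (46 to 59 against 272 to 310), with Ngp at 0 counts in all 3 controls. The summed level of the hematopoietic markers was lower with Aurkb siRNA (1131 to 1217 against 481 to 644). Of these, Cd68 (mean 645 against 199) and Lyz2 (291 against 164) were called lower, and Csf1r (221.5 against 194.7) was not called. Ptprc was too low to be tested (3.35 against 5.1). The neutrophil granule gene not called was Prtn3 (48 against 40.7). Whether the higher granule genes mark neutrophils was not tested, nor was the part of any of these cell types in the results below. In bulk RNA fewer cells of a type and less RNA per cell cannot be told apart.

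Bard1, Parpbp and Rad51b were the 3 repair genes called, the first 2 higher and the last lower with Aurkb siRNA, and the 300 bases around their start sites are shown so that the letters searched for can be seen in place. The windows run from 250 bases before the start to 50 after it and come from RefSeq on GRCm38.p6, written 5′ to 3′ on the strand of the gene. Capitals mark the letters searched for on both strands, which are TTTCCCGC, TTTGGCGC, TTTGCCGC and TTTCGCGC (the E2F site of genes of S phase), CCAAT (bound by NF-Y), and TTTGAA and TTTAAA (the cell cycle homology region of late cell cycle genes). The windows lie at chr1:71102923-71103222 (minus strand), chr10:88146892-88147191 (minus strand) and chr12:79297032-79297331 (plus strand).
Bard1: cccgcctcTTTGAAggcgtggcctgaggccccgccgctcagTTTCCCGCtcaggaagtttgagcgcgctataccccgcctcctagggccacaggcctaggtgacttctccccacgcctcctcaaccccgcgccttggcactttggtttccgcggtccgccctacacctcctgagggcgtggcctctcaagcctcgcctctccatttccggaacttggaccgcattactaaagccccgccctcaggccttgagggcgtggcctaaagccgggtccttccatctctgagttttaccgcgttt
Parpbp: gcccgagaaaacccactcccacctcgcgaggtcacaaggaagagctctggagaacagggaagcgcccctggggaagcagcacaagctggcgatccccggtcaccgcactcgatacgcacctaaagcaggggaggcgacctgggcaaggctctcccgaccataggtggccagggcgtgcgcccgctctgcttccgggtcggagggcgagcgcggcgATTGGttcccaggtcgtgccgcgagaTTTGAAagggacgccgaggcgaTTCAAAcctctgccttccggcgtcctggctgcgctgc
Rad51b: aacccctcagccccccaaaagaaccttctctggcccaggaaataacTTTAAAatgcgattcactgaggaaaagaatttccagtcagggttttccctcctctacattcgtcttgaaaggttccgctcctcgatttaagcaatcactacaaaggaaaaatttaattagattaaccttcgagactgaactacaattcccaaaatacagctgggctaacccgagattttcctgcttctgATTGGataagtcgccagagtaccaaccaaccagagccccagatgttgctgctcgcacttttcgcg
Distances are counted from the start used for the window, which for Bard1 and Parpbp lies inside the gene span given below. The Bard1 window holds TTTCCCGC 209 bases before that start and TTTGAA 242 bases before it. The Parpbp window holds CCAAT on the other strand 35 bases before the start, TTTGAA 9 bases before it and the same letters on the other strand after it. The Rad51b window holds no E2F letters, CCAAT on the other strand 15 bases before the start and TTTAAA 204 bases before it. The reference has a second window for Rad51b, from a start site further along the gene, which holds CCAAT and TTTGAA but no TTTAAA and no E2F letters.

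The E2F letters were more frequent among the repair genes than among all promoters of the table. Of the 35 genes, 27 had a window in the reference, and 5 of these (18.5%) held one of the 4 E2F words against 466 of 11687 windows of the table (3.99%). CCAAT was found in 18 of 27 windows (66.7%) against 38.5% of all windows, and TTTGAA or TTTAAA in 5 (18.5%) against 19.4%. The shares count the first window of each gene. Rad51c too has a second window, which holds TTTCCCGC. These shares are descriptions of letters, and a match is not a bound site. The 5 windows were those of Bard1, above, and of Brca2, Chek2, Fancg and Rad51c, of which 40 bases each are given here with the word in capitals, at chr5:150522437-150522476 (plus strand), chr5:110839815-110839854 (plus), chr4:43010330-43010369 (minus) and chr11:87404472-87404511 (minus).
Brca2: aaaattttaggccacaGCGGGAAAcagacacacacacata
Chek2: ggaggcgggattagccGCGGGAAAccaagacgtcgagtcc
Fancg: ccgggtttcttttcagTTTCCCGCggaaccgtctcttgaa
Rad51c: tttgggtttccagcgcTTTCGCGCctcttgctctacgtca
These 4 stretches lie within the annotated spans of their genes. Of the 5 genes with E2F letters only Bard1 was called, and the log2 fold changes of the other 4 ran from -0.19 to 0.17.

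As a group the repair genes changed little between the control and the Aurkb siRNA libraries, with more of them above 0 than below. Of the 35, 2 were called higher and 1 lower, 3 in all, where 12.3% of all genes tested were called, 4.64% higher and 7.67% lower. At the adjusted p alone, with no minimum fold, 7 of the 35 passed, 6 higher and 1 lower, where 40.0% of all genes did, 19.5% higher and 20.5% lower. The values of the 2 groups did not overlap for 12 of the 35, 9 higher and 3 lower, against 52.2% of all genes, 26.0% higher and 26.2% lower. By each of these 3 counts the genes that were higher stood close to the share of all genes, and those that were lower stood below it. The median log2 fold change was 0.07 over the 35 and 0.00 over all genes tested. Of the 35, 24 lay above 0 (68.6%, against 50.4% of all genes tested) and 11 below. The plot of the changes by role shows Bard1, Parpbp and Rad51b standing apart from the other 32.

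**Figure D1:**
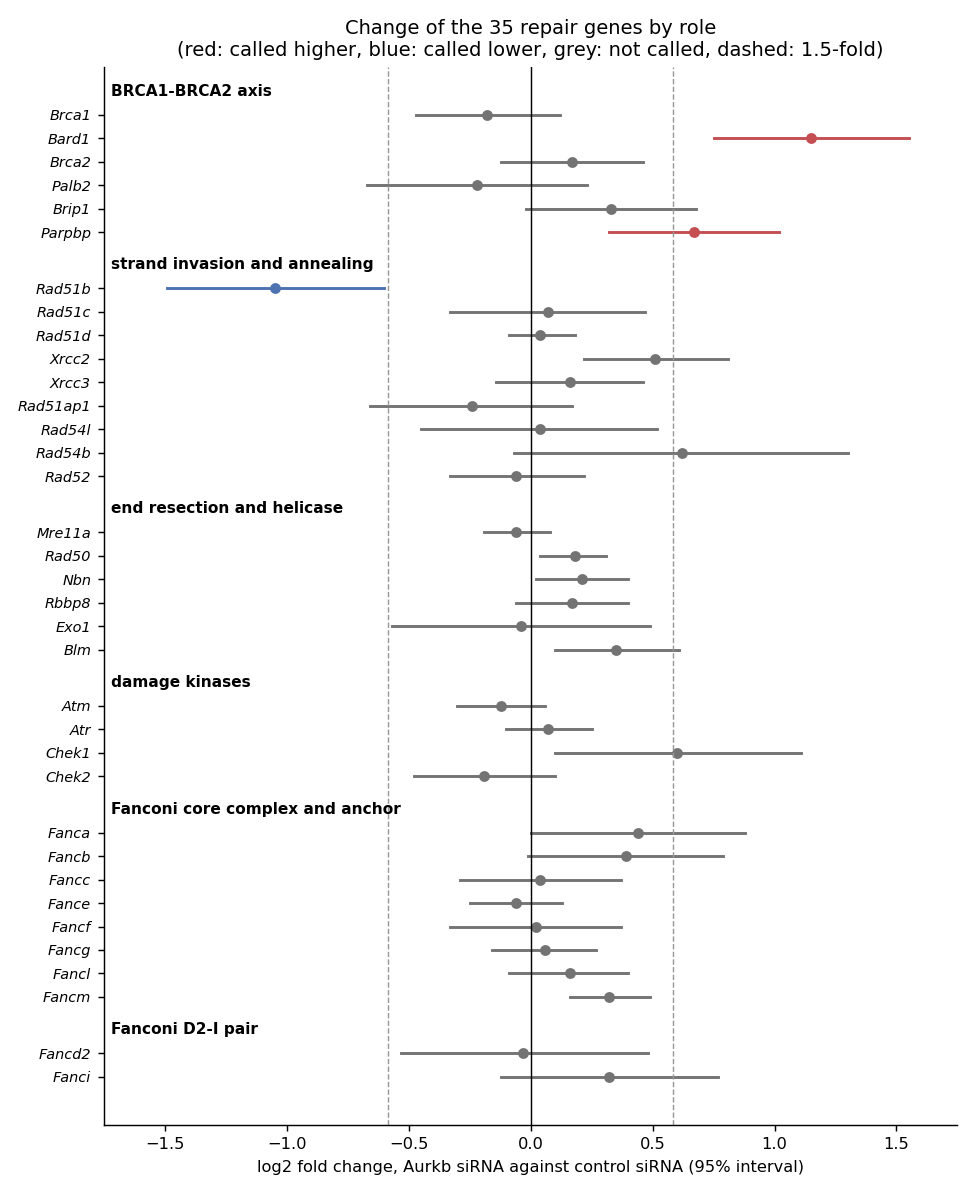
Log2 fold change of each repair gene, Aurkb siRNA against control siRNA, with its 95% interval from limma (n = 3 libraries a group), grouped by role. Bard1 (1.15) and Parpbp (0.67) were called higher and Rad51b (-1.05) lower, while the other 32 genes, in grey, were not called.

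Within the BRCA1 and BRCA2 axis the partner of BRCA1 rose while BRCA1 itself did not pass. Bard1, whose protein forms a ubiquitin ligase with BRCA1, stood at 45.7, 35.9 and 38.4 normalized counts with control siRNA and at 87.3, 105 and 78.9 with Aurkb siRNA. All 3 Aurkb siRNA libraries lay above all 3 controls, at a mean of 90.2 ± 13.1 against 40 ± 5.08 (SD, n = 3 each), from 91, 101 and 60 reads against 51, 39 and 42. The log2 fold change was 1.15 ± 0.18 (SE by limma, 95% interval 0.75 to 1.55, adjusted p = 0.00102). The gene lies at chr1:71027535-71103141 of GRCm38, and its exons overlap no other annotated exon.

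Brca1, which directs ends toward recombination, stood at 116, 113 and 115 normalized counts with control siRNA and 89.2, 113 and 104 with Aurkb siRNA. The Aurkb siRNA libraries were all lower, but the second missed the controls by under 1 count, and the log2 fold change of -0.18 did not pass (adjusted p = 0.31). Bard1 and Brca1 thus differed in their own tests, and the difference between the 2 changes was not tested. Brca2, a mediator of recombination, was at 171, 161 and 222 normalized counts with control siRNA and 202, 204 and 212 with Aurkb siRNA. The third control library of Brca2 was above every Aurkb siRNA library and the log2 fold change was 0.17 (adjusted p = 0.33). Palb2, which bridges BRCA1 and BRCA2, and Brip1, a helicase that binds BRCA1, had log2 fold changes of -0.22 and 0.33 with overlapping groups (adjusted p = 0.409 and 0.118).

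Parpbp, also called PARI, is known in human cells to bind PCNA and to restrain recombination at forks. It stood at 46.6, 43.3 and 47.6 normalized counts with control siRNA and 73.9, 79.7 and 67 with Aurkb siRNA, so that every Aurkb siRNA library was higher. The means were 45.8 ± 2.24 and 73.5 ± 6.35 (SD, n = 3 each), a log2 fold change of 0.67 ± 0.15 (SE by limma, adjusted p = 0.00819), which is past 1.5-fold and under 2-fold. The gene lies at chr10:88091398-88146969, where 12.1% of its exon bases are shared with Pmch on the other strand. The strand setting of the counting is not given in the sources used here, so that reads of these bases cannot be assigned to 1 of the 2 genes.

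**Figure D2:**
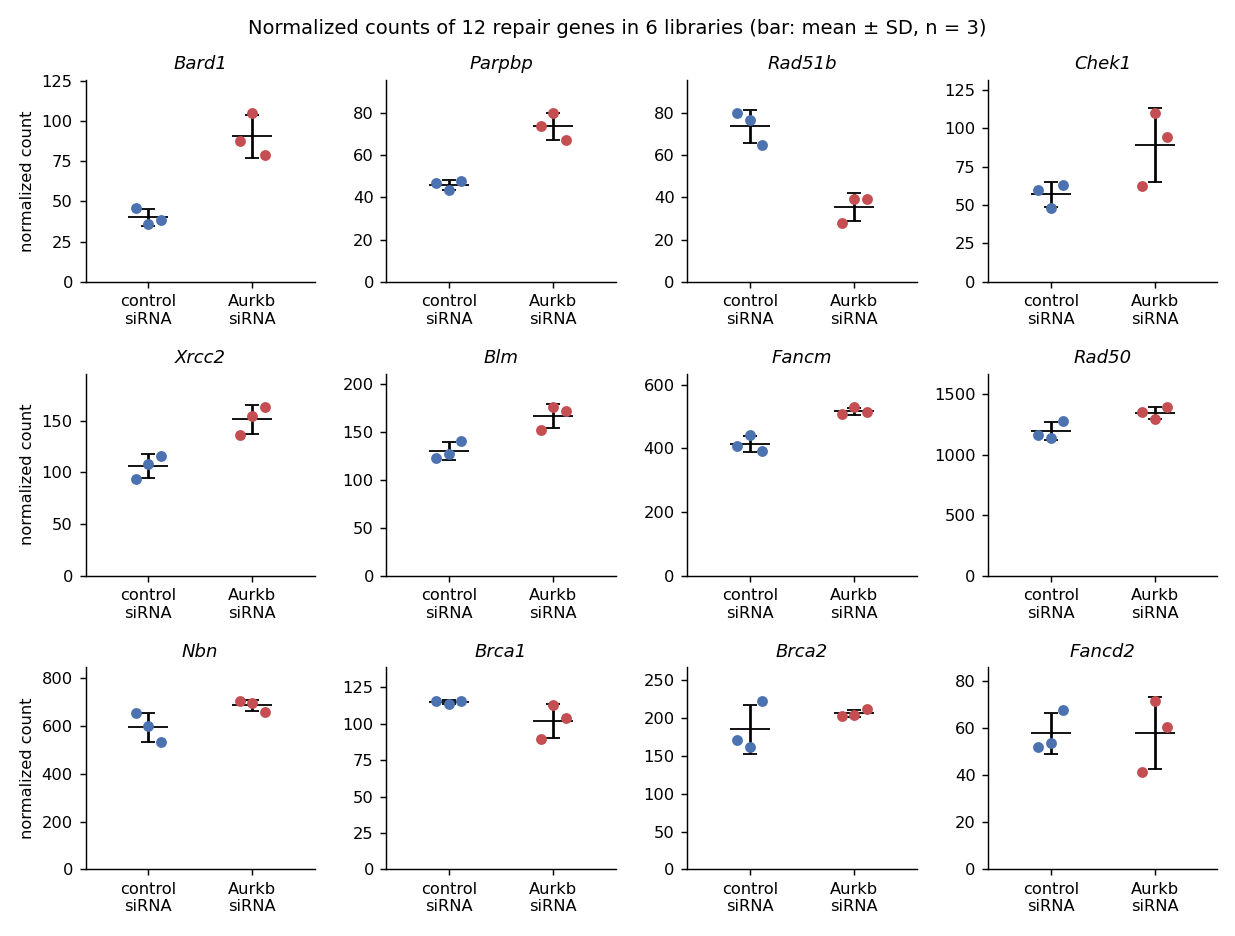
Normalized counts of 12 repair genes in the 3 control siRNA and 3 Aurkb siRNA libraries (points), with mean and SD (bars). For Bard1, Parpbp and Rad51b the groups are far apart, for Chek1, Brca2 and Fancd2 they overlap, and Fancm, Blm, Xrcc2, Rad50 and Nbn are higher in all 3 Aurkb siRNA libraries by less than 1.5-fold.

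Among the 9 genes of strand invasion and annealing a single gene fell. Rad51b, which forms the BCDX2 complex with RAD51C, RAD51D and XRCC2, was at 79.8, 76.5 and 65 normalized counts with control siRNA and 27.8, 39.3 and 39.4 with Aurkb siRNA. The highest Aurkb siRNA library was well under the lowest control, and the means were 73.7 ± 7.77 and 35.5 ± 6.67 (SD, n = 3 each), from 89, 83 and 71 against 29, 38 and 30 reads. The log2 fold change was -1.05 ± 0.20 (SE by limma, 95% interval -1.49 to -0.60, adjusted p = 0.00294). Rad51b lies at chr12:79297282-79848260 with no overlap of its exons by another annotated gene.

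The other 3 genes of that complex were not called and lay above 0. Xrcc2 was at 93.2, 108 and 116 normalized counts with control siRNA and 136, 154 and 163 with Aurkb siRNA, higher in every Aurkb siRNA library, with a log2 fold change of 0.51 ± 0.13 (SE by limma, adjusted p = 0.0133) that stayed just under 1.5-fold. Leaving out 1 library at a time gave 0.43 to 0.59 with adjusted p up to 0.0537 (limma), and Xrcc2 was called in 1 of these 6 fits, the one without Aurkb siRNA replicate 1 (0.59). Rad51c and Rad51d had log2 fold changes of 0.07 and 0.04 with 95% intervals of -0.33 to 0.47 and -0.09 to 0.18. Xrcc3, which pairs with RAD51C in a second complex, was at 0.16 (-0.14 to 0.46).

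Rad54b, a DNA translocase related to RAD54, was the least abundant repair gene, with 15.2, 26.7 and 16.5 normalized counts with control siRNA and 26.9, 40.4 and 23.7 with Aurkb siRNA. Its second library was the highest in both groups, which overlapped, and the log2 fold change of 0.62 (standard error 0.30) did not pass (adjusted p = 0.137). In the annotation 35.8% of its exon bases are shared with Fsbp on the same strand. Rad54l, the main RAD54 translocase, was at 0.04, Rad51ap1, which stimulates strand invasion and was lower in all 3 Aurkb siRNA libraries, at -0.24, and Rad52, an annealing protein, at -0.06 on the log2 scale, none of them passing (adjusted p from 0.321 to 0.908).

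The genes of end resection and of the BLM helicase gave 0 calls of 6, with 4 above 0 and 2 below. Of all genes tested 12.3% were called, a share at which so short a list may well hold no called gene. Blm, the Bloom helicase that dissolves joint molecules, was at 123, 127 and 141 normalized counts with control siRNA and 152, 176 and 172 with Aurkb siRNA. All Aurkb siRNA libraries were above all controls, and the log2 fold change of 0.35 (standard error 0.11) passed the adjusted p alone (0.0343). Rad50, the coiled-coil ATPase of the MRE11 complex, was at 1166, 1137 and 1278 normalized counts with control siRNA and 1352, 1296 and 1394 with Aurkb siRNA. Its groups did not overlap either, with a log2 fold change of 0.18 (adjusted p = 0.0453). Nbn, the subunit of the same complex that recruits ATM, was at 654, 599.9 and 532 normalized counts with control siRNA and 704, 695 and 659.8 with Aurkb siRNA, a log2 fold change of 0.21 (adjusted p = 0.0698). The first control library and the third Aurkb siRNA library of Nbn were close, and the groups just missed each other. Mre11a, the nuclease of the complex, was at a log2 fold change of -0.06 with a narrow interval of -0.19 to 0.08, and Rbbp8 (CtIP), which starts resection, was at 0.17 (-0.06 to 0.40). Exo1, the long-range exonuclease, was at 49.3, 35.9 and 43.9 normalized counts with control siRNA and 33.6, 55.9 and 38.1 with Aurkb siRNA. Its values overlapped fully, and the interval of -0.57 to 0.49 on the log2 scale covers changes in either direction.

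Of the damage kinases 0 of 4 were called, where 12.3% of all genes tested were, although Chek1 was close. Chek1, the checkpoint kinase downstream of ATR, was at 60.1, 47.9 and 63.1 normalized counts with control siRNA and 62.4, 109.7 and 94.6 with Aurkb siRNA. The first Aurkb siRNA library lay among the controls and the other 2 lay above them, so that the log2 fold change of 0.60 (standard error 0.22, 95% interval 0.10 to 1.11) came with an adjusted p of 0.0583 from limma. With the replicate number as a block the adjusted p was 0.0353, at which Chek1 would be called higher. Leaving out 1 library at a time gave log2 fold changes of 0.43 to 0.84 with adjusted p up to 0.172 (limma), and Chek1 was called in 1 of these 6 fits, the one without Aurkb siRNA replicate 1 (0.84).

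Chek2, the kinase downstream of ATM, was at 274, 215 and 293 normalized counts with control siRNA and 219.7, 248 and 212 with Aurkb siRNA. The second control library was as low as the lowest Aurkb siRNA libraries, and the log2 fold change was -0.19 (adjusted p = 0.267). Atm was at 1157, 1006 and 1261 normalized counts with control siRNA and 1048, 1059 and 1033 with Aurkb siRNA. The 3 Aurkb siRNA values of Atm fell within the range of the controls, with a log2 fold change of -0.12 (-0.30 to 0.06). Atr was at 578, 557 and 625 normalized counts with control siRNA and 581, 671 and 598 with Aurkb siRNA, a log2 fold change of 0.07 (-0.10 to 0.25), also with overlapping groups.

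The Fanconi genes gave 0 calls of 10, where 12.3% of all genes tested were called, with Fancm at the smallest adjusted p of the 10. Fancm, the translocase that anchors the core complex to DNA, was at 407, 440.5 and 392 normalized counts with control siRNA and 508, 529 and 513 with Aurkb siRNA. The 3 Aurkb siRNA libraries lay close together and above every control, at a log2 fold change of 0.32 ± 0.07 (SE by limma, 95% interval 0.16 to 0.49, adjusted p = 0.00656), which is below 1.5-fold. Fanca and Fancb, members of the core complex, were higher in all 3 Aurkb siRNA libraries as well, with log2 fold changes of 0.44 and 0.39 that did not pass (adjusted p = 0.104 and 0.114). Fancl, the ubiquitin ligase of the core complex, was at 0.16, and Fancc, Fancf and Fancg, further core subunits, were at 0.04, 0.02 and 0.06.

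Fance, the core subunit that contacts FANCD2, was the highest Fanconi gene per length, in RPKM. It was at 396, 393 and 384 normalized counts with control siRNA and 361, 414 and 352 with Aurkb siRNA. The second Aurkb siRNA library was above the controls and the other 2 below, for a log2 fold change of -0.06 (adjusted p = 0.595). Fancd2, the protein that receives the ubiquitin, was at 52, 53.4 and 67.7 normalized counts with control siRNA and 41.3, 71.4 and 60.5 with Aurkb siRNA. The Aurkb siRNA group held both the lowest and the highest of its 6 values, and the log2 fold change was -0.03 (-0.53 to 0.48). Fanci, its partner, was at 43.9, 47 and 67.7 normalized counts with control siRNA and 59.5, 69.4 and 67 with Aurkb siRNA, with a log2 fold change of 0.32 (adjusted p = 0.224). Shared exon bases on the other strand made up 16.4% of Fancc, with the antisense gene Gm16133, 16% of Fanci, with Polg, 15% of Fancf, with Gas2, 13.7% of Fancl, with Vrk2, and 10.5% of Fanca, with Zfp276.

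Per length the repair genes were low. Their median in the control libraries was 0.97 RPKM against 6.14 for all genes of the table, and 18 of 35 were under 1 RPKM. Nbn, Rad50 and Fance were the highest, at 8.79, 8.53 and 6.81 RPKM, and were the only ones of the 35 above the median of all genes. Nbn and Rad50 overlapped over their control libraries, while Rad50 was above Fance, and Fance above the next gene, Chek2, in all 3. Exo1, Bard1 and Rad54b were the lowest, at 0.288, 0.27 and 0.102 RPKM, and the highest level was 86.2 times the lowest. In the controls Bard1 was under Brca1 in all 3 libraries, with means of 0.27 and 0.635 RPKM. With Aurkb siRNA the libraries of Bard1 and Brca1 overlapped, with means of 0.612 and 0.566 RPKM. Rad51b, between Blm and Rad51ap1 in the controls at 0.957 RPKM, stood at 0.462 RPKM with Aurkb siRNA. The low genes rest on few reads, from 17 for the lowest member in a library to 1409 for the highest, and 6 of the 35 had a mean under 50 normalized counts in both groups.

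**Figure D3:**
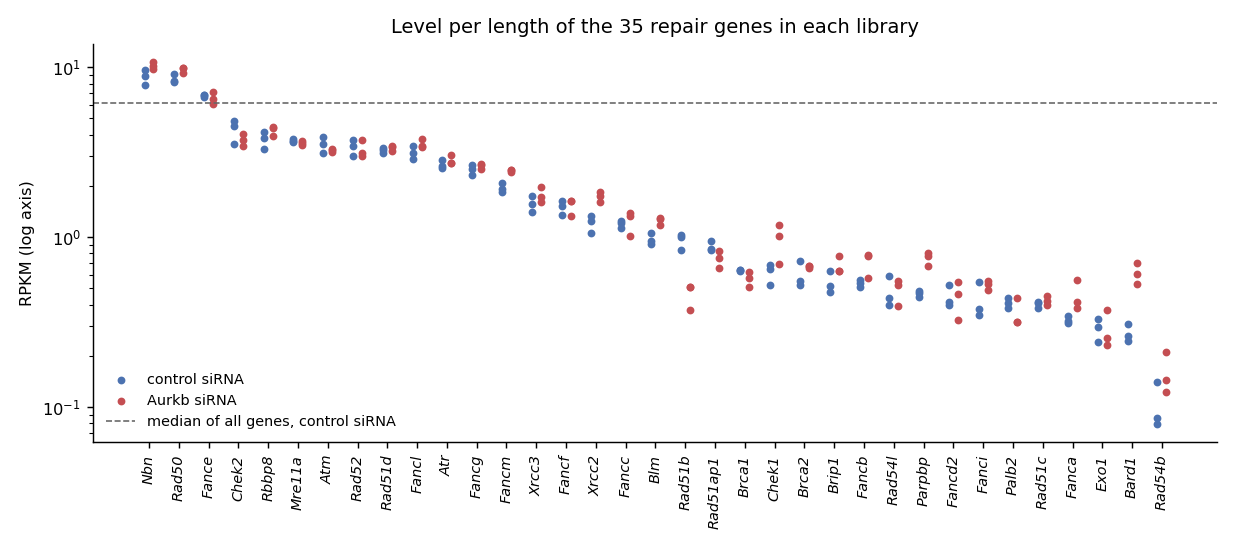
RPKM of the 35 repair genes on a log axis, ordered by their control mean, with 3 control siRNA and 3 Aurkb siRNA libraries as points. The dashed line is the control median of all genes, 6.14 RPKM, and only Nbn, Rad50 and Fance lie above it.

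Within each group the repair genes were not spread evenly over the libraries. The second Aurkb siRNA library held the highest Aurkb siRNA value for 24 of the 35 genes (68.6%, against 36.4% of all genes tested), and the third control library held the highest control value for 20 (57.1%, against 32.5%). The same libraries were the highest of their groups for 20 of 20 mitosis genes, which include Mki67 and Plk1, and for 20 of 30 DNA replication genes each. The median deviation from the mean of the 6 libraries was 0.15 on the log2 scale for the repair genes in the second Aurkb siRNA library, against 0.03 and 0.01 in the other 2. For mitosis genes it was 0.38, against -0.19 and -0.15. The 3 genes called here kept their calls without any 1 of the 6 libraries, with log2 fold changes of 1.04 to 1.25 for Bard1, 0.61 to 0.73 for Parpbp and -1.13 to -0.88 for Rad51b. The part of the share of dividing cells in any of these differences, those of the 3 called genes included, was not tested.

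**Figure D4:**
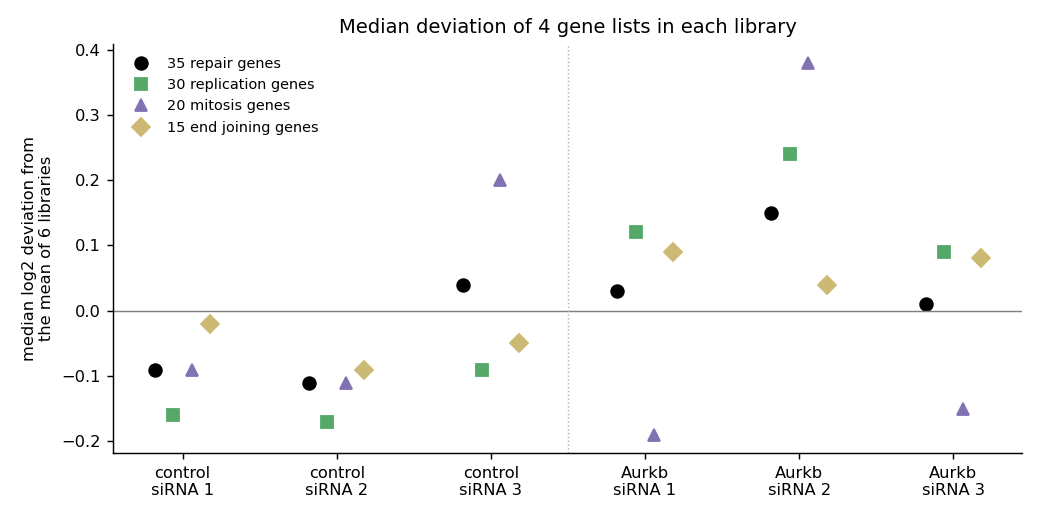
Median log2 deviation of 4 gene lists from the mean of all 6 libraries, by library. The third control library and the second Aurkb siRNA library stand above their groups for the 20 mitosis genes (0.20 and 0.38) and, by less, for the 35 repair genes (0.04 and 0.15).

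The neighboring pathways were read in the same fit, in which 12.3% of all genes tested were called, from lists chosen by function. Of 42 other recombination and Fanconi genes tested, 1 was higher and 1 lower, with a median log2 fold change of 0.15. Mcm8, a helicase that acts with MCM9 in recombination, rose from 79.8 ± 10.9 to 132 ± 12.2 normalized counts (mean and SD of 3 libraries, log2 fold change 0.72 by limma, adjusted p = 0.00439). Ercc4 (XPF), the nuclease that makes incisions at crosslinks, fell from 638 ± 17.6 to 382 ± 30.1 (log2 fold change -0.74, adjusted p = 0.00013), and its libraries ran at 628, 628 and 658 against 376, 356 and 415. Of 15 checkpoint adaptors 0 were higher and 1 was lower, with a median of 0.18. The lower gene was Rnf8, a ubiquitin ligase of the chromatin at breaks, at 88.8, 122 and 109 normalized counts with control siRNA and 42.2, 71.4 and 80.2 with Aurkb siRNA. Its log2 fold change of -0.75 (adjusted p = 0.0343) lost the call without control siRNA replicate 2 (-0.65), without control siRNA replicate 3 (-0.73) or without Aurkb siRNA replicate 1 (-0.47).

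End joining and mitosis genes gave no call, and replication genes gave 3, where 12.3% of all genes tested were called. Of 15 end joining genes tested 0 were called, with a median of 0.09, and 5 had an unadjusted p under 0.05, against 6805 of the 13906 genes tested. Of 20 mitosis genes 0 were called and 0 had an unadjusted p under 0.05, with a median of 0.03 (limma), and voom gave 0 calls for both lists. Of 30 DNA replication genes 3 were higher and 0 lower, 28 lay above 0, and the median was 0.26. Prim1, the small subunit of primase, rose from 103 ± 15.6 to 202 ± 10.7 normalized counts (adjusted p = 0.000599), Pole2, a subunit of polymerase epsilon, from 107 ± 6.89 to 167 ± 13.6 (adjusted p = 0.00256), and Cdt1, the licensing factor, from 196 ± 13.2 to 295 ± 20.3 (adjusted p = 0.00145). Cdt1, at a log2 fold change of 0.59, was under 1.5-fold without control siRNA replicate 1 (0.56), control siRNA replicate 2 (0.56) or Aurkb siRNA replicate 1 (0.53), and Pole2, at 0.64, without Aurkb siRNA replicate 2 (0.57). Differences between the lists were not tested.

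**Figure D5:**
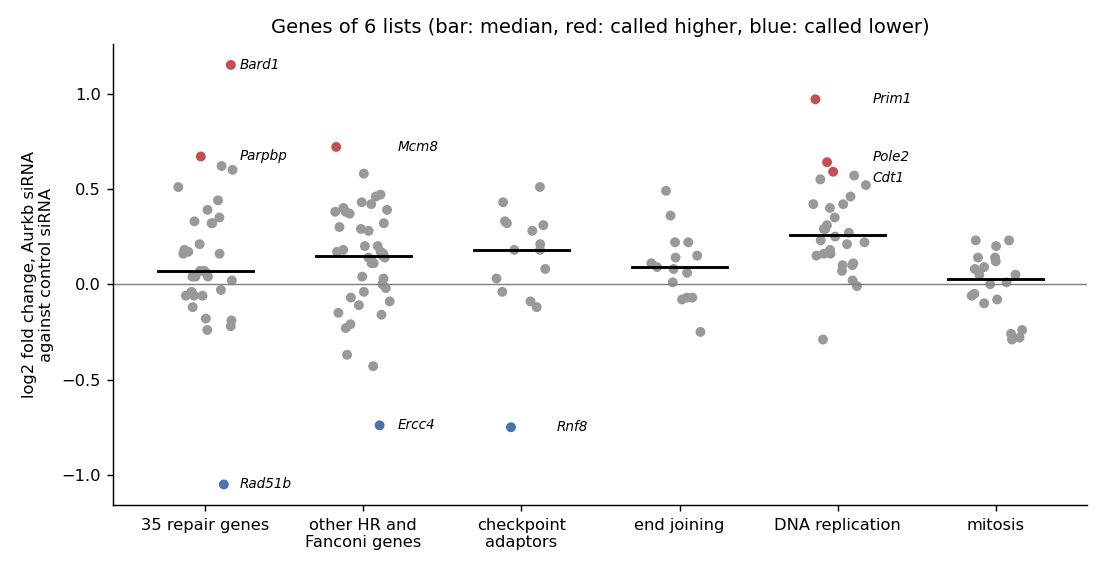
Log2 fold change of each tested gene in 6 lists, Aurkb siRNA against control siRNA, with the list median as a bar and called genes named. The medians run from 0.03 for mitosis genes to 0.26 for DNA replication genes, and the 35 repair genes hold the widest range of the 6 lists, from -1.05 to 1.15.

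Rad51b, the 1 repair gene called lower, holds in its 3′ UTR 1 of 2 words that were picked from these same libraries. The words, AACGTGT and ACGTGTA, are both present in the Aurkb transcript. An earlier look at these libraries found them to be frequent in the 3′ UTRs of lower genes. Their shares, and their presence in the lower genes named here, are therefore not independent evidence. A word lay in the 3′ UTR of 239 of 1039 genes called lower (23%), 23 of 594 called higher (3.87%) and 760 of 11580 other genes (6.56%). Among the 35 repair genes 4 held one, namely Rad51b, Rad51c, Fancm and Mre11a, and in the other recombination, checkpoint and end joining lists 5 of 71 did, namely Ercc4, Rnf8, Eme2, Rmi1 and Wdr48. Rad51b, Ercc4 and Rnf8, which are the 3 called lower in these lists, are all among the holders, and the other 6 holders were not called. The 29 bases around the first site of each of the 3 are shown with the word in capitals, from GENCODE M21 transcripts on GRCm38, at chr12:79508306-79508334, chr16:13148638-13148666 and chr17:29641406-29641434, all on the plus strand.
Rad51b: ctgtggttcctAACGTGTgatcttgggtc
Ercc4: caggtatatgtAACGTGTactgtgactcg
Rnf8: taccaccccccAACGTGTgctgggaccct
The site of Rad51b lies in 1 of the 3 coding transcripts searched, that of Ercc4 in 2 of 3 and a word of Rnf8 in 3 of 4, and the transcripts these cells use were not measured. The part of the words in the lower values was not tested.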

How the data were processed

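RNA of 6 libraries of lung-resident fibroblasts was sequenced, 3 with control siRNA and 3 with Aurkb siRNA. Per the submitters' processing notes, the tools were bcl2fastq, CASAVA 1.8, TopHat and DESeq and the build was mm10. How reads were counted, with which strand setting and annotation, is not given in the sources used here. RPKM values were deposited by the authors and are reads per gene length and per library total. Signal values deposited beside them by the authors are group means of read counts divided by size factors. Fold, log2 and p columns of the authors' own comparison were held in the table and not used.

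Whole reads were recovered from these values with steps found from 445 low genes, and 100% were whole numbers to a tolerance of 0.001. The minimum was a group mean of 10 normalized counts, and the model was limma 3.58.1 (trend, R 4.3.3) on log2(normalized count + 1), two-sided, with 4 residual degrees of freedom. An exact permutation test of 3 against 3 libraries cannot go below p = 0.1. The fit was tested on simulated data. Other tools were Python 3.11.15, pandas 2.3.3, numpy 2.4.6 and matplotlib 3.10.9.

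The genes and lists were chosen with earlier results of these data known. Every repair gene was named, with values per library for those called or at an unadjusted p under 0.05, for the 3 most and 3 least abundant per length and for Brca1, Brca2, Atm, Atr, Chek1, Chek2, Fancd2 and Fanci, and Aurkb and up to 3 called genes of each other list were named. The genes with a 3′ UTR word were added after their values were seen. Other marker lists gave 2 of 9 fibroblast genes lower, 2 of 4 hematopoietic genes lower, 1 of 4 epithelial genes higher and 1 lower, 2 of 5 mesothelial genes lower, and 1 of 5 pericyte and smooth muscle genes higher and 2 lower. Deviations of libraries with the same replicate number from their group means correlated at 0.395, 0.173 and 0.214 across genes. Those of different numbers correlated at -0.243 to 0.049. Whether equal numbers mark paired samples is not stated. These correlations cannot decide it, because deviations from a shared group mean depend on each other. The main fit therefore took the libraries as unpaired, and blocking on the number served only as an alternative. Alternatives were the RPKM values, 3 other scalings, voom, 2 pseudocounts, 2 filters, 2 fold thresholds, the replicate block and leaving out each library.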

Additional observations from a re-analysis of the deposited data

How the results depend on the processing

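Bard1, Parpbp and Rad51b kept their calls in every alternative that tested them, except that Parpbp was under a 2-fold threshold. On log2(RPKM + 1) with a minimum of 1 RPKM, 18 of the 35 repair genes were tested, the 3 called genes not among them, and 0 were called higher and 0 lower. All genes then gave 311 higher and 531 lower, the other recombination list 0 and 0, replication genes 1 higher and checkpoint adaptors 0 lower. At 2-fold, 224 genes were higher and 380 lower, 1 repair gene was higher, and the other recombination, replication and checkpoint lists gave 0. At the adjusted p alone, 2711 genes were higher and 2850 lower, with 6 repair genes, 10 other recombination genes, 6 checkpoint adaptors, 3 end joining and 13 replication genes higher, and 1 end joining and 1 replication gene lower.

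The median of the 35 was 0.17 after quantile normalization, which also gave 0 lower checkpoint adaptors, and 0.16 at a minimum mean of 50, where 29 were tested. The median of all genes was 0.00, 0.01 or 0.03 under these scalings and filters. After quantile normalization Fancd2 was at 0.03 and Exo1 at 0.04, against -0.03 and -0.04, neither called. With total-read scaling Chek1 was called (0.61, adjusted p = 0.0475 from limma). The replicate block called Chek1 (0.60, adjusted p = 0.0353 from limma) and changed no other call among the 35 or in the other repair, replication and mitosis lists.

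Without 1 library, 575 to 633 genes were higher and 898 to 1113 lower, 2 to 4 repair genes were higher and 1 lower, with a median of 0.07 to 0.15 (all genes 0.00 to 0.01). The 4 were reached without Aurkb siRNA replicate 1, which added Chek1 and Xrcc2. The other recombination list gave 1 to 2 higher, replication genes 2 to 6, end joining genes 0 to 1, and checkpoint adaptors 0 to 1 lower. Genes near 0 changed sign, Fancf (-0.05 to 0.11), Rad54l (-0.08 to 0.20), Exo1 (-0.25 to 0.11), Rad52 (-0.16 to 0.02), Fancd2 (-0.19 to 0.19) and Fancc (-0.05 to 0.19). With 17 to 1409 reads a gene, changes of low genes such as Rad54b and Exo1 were not detectable at this depth unless large.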

Other observations

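Several repair genes outside the symbol rule passed the adjusted p by limma without reaching 1.5-fold. They were picked out here after their values were seen, and their log2 fold changes are all small. Around the Fanconi pathway, Usp1, the protease that removes ubiquitin from FANCD2, stood at 862 ± 32 normalized counts with control siRNA and 1124 ± 84.1 with Aurkb siRNA (log2 fold change 0.38, adjusted p = 0.00221 by limma, SD of 3 libraries). Its cofactor Wdr48 was at 1382 ± 13.6 and 1699.9 ± 68.6 (0.30, adjusted p = 0.0016 by limma). Faap24, the partner of FANCM, was at 146 ± 6.74 and 198 ± 10.6 normalized counts (0.43, adjusted p = 0.00841 by limma). The helicases Wrn and Helq were at log2 fold changes of 0.37 and 0.46.

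In checkpoint signaling, Tipin, which protects stalled forks, was at 342 ± 20.1 and 488 ± 3.62 normalized counts (log2 fold change 0.51, adjusted p = 0.000714 by limma). Rad9a and Hus1, members of the clamp that activates ATR, and Rad17, its loader, were at 0.31, 0.32 and 0.33, and the histone gene H2afx was at 0.43. In end joining, Xrcc6 (Ku70), which caps broken ends, was at 421 ± 32.8 and 590.1 ± 18.1 normalized counts (0.49, adjusted p = 0.00111 by limma), and the polymerase gene Polm was at -0.25. In the same fit 40.0% of all genes tested passed the adjusted p alone.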
